A study of Mus musculus with 9 samples.

Results

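The transcriptomes of E2A-/- and wild type (WT) bone marrow progenitors were compared across genes. The comparison covered all arrays whose titles name those genotypes, 3 E2A-/- and 3 WT of the 9 arrays in the study. The third genotype, Lyl1-/-, entered the fit to estimate the spread and was used to ask whether a difference from WT also separated the knockouts. The cells of every group were sorted by flow cytometry as Lineage-CD117+SCA-1+CD135+, a phenotype of multipotent progenitors with lymphoid potential, and the labels name 3 independent biological replicates per genotype. The sources used here give no strain, age, sex or treatment, and they do not say whether a replicate pooled mice or which part of the E2A gene was removed. In bulk RNA, fewer cells of a type and less RNA per cell cannot be told apart.

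E2A is the product of the gene Tcf3, a basic helix-loop-helix transcription factor of the E protein family. E proteins bind short DNA motifs called E-boxes as dimers, with each other or with tissue-specific partners such as Tal1 and Lyl1, and Id proteins keep them from DNA. In bone marrow E2A is known for switching on genes of the early lymphoid and B cell programme, among them genes of antigen receptor rearrangement.

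The deposited values are linear intensities, 1 per probe set and array, and were compared as log2. A probe set is a group of short probes against 1 transcript region, and a gene can have several. Differences are E2A-/- minus WT in log2 intensity, so that 1 is a doubling, and the threshold was a limma adjusted p under 0.05 over 20387 tested probe sets of 11954 genes. WT 1 and WT 3 differed hardly more at bright than at dim probe sets (ratio of spreads 1.15, and 0 probe sets beyond 2-fold). They were counted as 1 sample, so WT had n = 2 and E2A-/- n = 3. The ratio of actin probe sets at the 3-prime and 5-prime ends was 10.6 on WT 2 and 10.1 on E2A-/- 2, and elsewhere it was 2.85 to 4.23. Spiked-in hybridisation controls averaged (geometric mean) 1201 to 1388 on the WT arrays and E2A-/- 1, and they averaged 1719 and 3194 on the remaining E2A-/- arrays. Xist, expressed from the inactive X chromosome, read 2362 on E2A-/- 2 and 84.6 to 103.7 on the other E2A-/- and all WT arrays. On Lyl1-/- 1, 2 and 3 Xist read 2011, 2001 and 79.7, and the spiked-in controls averaged 2295, 1859 and 2633. With the presence of Xist signal as a covariate 26 probe sets passed the threshold, and with the actin ratio as a covariate 32 did, of which 25 and 31 were among the 45 described below. The part of the spike levels in the results was not tested.

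Tcf3 was read first. The brightest Tcf3 probe set read 204.6, 164.2 and 195.2 on WT 1, 2 and 3 and 172.3, 192.8 and 121.4 on E2A-/- 1, 2 and 3. The groups overlapped, and the difference was -0.19 (SE 0.187, limma adjusted p = 0.908). The second tested probe set differed by -0.12 (limma adjusted p = 0.902), and the third, at 65.3 to 74.3 on these 6 arrays, was too dim to be tested. A probe set outside the removed part checks nothing, so these values leave the E2A-/- labels unchecked. The surface markers of the sort were present on the E2A-/- and WT arrays: Kit (CD117) read 327 to 507.7 and Flt3 (CD135) 863 to 1302, and no single-gene probe set for Ly6a (SCA-1) was at hand. Differences for Kit and Flt3 were -0.22 and -0.13, with limma adjusted p of 0.866 and 0.969.

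E2A-/- progenitors differed from WT at 45 probe sets (0.221% of those tested), 17 higher (0.0834%) and 28 lower (0.137%). These belong to 35 genes, 16 higher and 19 lower. Most of these probe sets differed from the same WT samples in the same direction on the Lyl1-/- arrays, as described below. The myotubularin family member Mtmr9, the interferon-inducible Xaf1 and the exosome helicase gene Mtrex fell most, and the predicted gene Gm4047, the secreted protease inhibitor Wfdc17 and the secreted factor C1qtnf12 rose most. At all 45 probe sets the 3 E2A-/- arrays lay to one side of the 3 WT arrays, as 17.6% of all tested probe sets did (7.23% above and 10.3% below). A small p on these arrays selected the 45, so their lack of overlap follows largely from the selection. At an unadjusted p under 0.05, 605 probe sets were higher (2.97%) and 1040 lower (5.1%), and 53.3% of all differences were negative. The mean difference was over 2-fold at 43 higher (0.211%) and 34 lower probe sets (0.167%). The number past the threshold depended on single arrays. It was 15 without WT 2, 27 without E2A-/- 2, 23 without E2A-/- 3, 20 without Lyl1-/- 1 and 19 without Lyl1-/- 2, and it was 14 in a fit of the E2A-/- and WT samples alone. All 45 differences kept their sign in each of these fits. The fits share arrays with the one that selected the 45, so the kept sign adds no support.

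**Figure D1:**
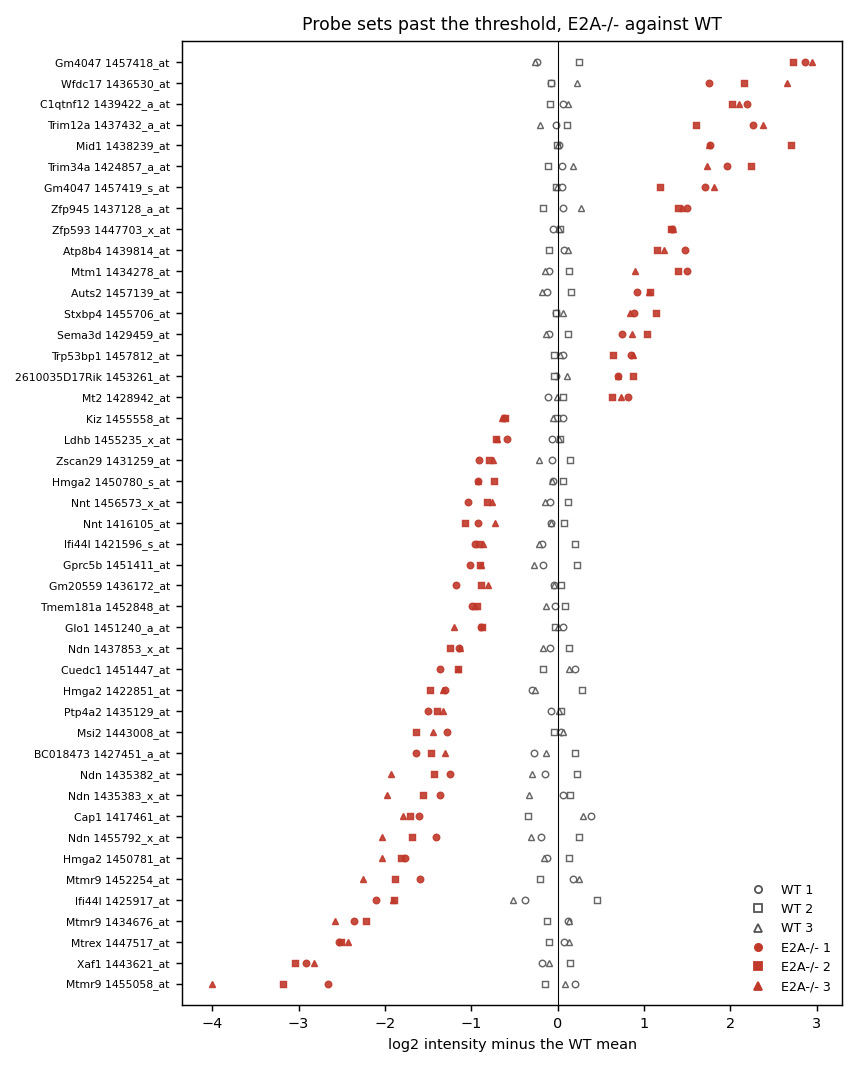
The 45 probe sets past the threshold, each with its 3 WT arrays (open grey) and 3 E2A-/- arrays (red) as log2 intensity minus the WT mean on the horizontal axis. Circles, squares and triangles are replicates 1, 2 and 3, and at each probe set the red points lie on one side of all open points.

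Mtmr9, a catalytically inactive partner of phosphoinositide phosphatases, was lower at all 3 of its probe sets. The brightest by WT level, 1455058_at, read 1593, 1259 and 1478 on the WT arrays and 220, 152.8 and 86.9 on the E2A-/- arrays, and it fell by 3.28 (SE 0.351, limma adjusted p = 0.0102). Probe set 1434676_at read 1215, 1027 and 1224 on WT and 217.8, 241 and 187.2 on E2A-/-, and it fell by 2.39 (SE 0.146, limma adjusted p = 0.000653). The third Mtmr9 probe set fell by 1.91. All E2A-/- arrays were far below all WT arrays, and E2A-/- 3 was the lowest of the 3 at each Mtmr9 probe set. Xaf1 probe set 1443621_at read 417, 520 and 438 on WT and 62.4, 57.1 and 66.5 on E2A-/-, and it fell by 2.93 (SE 0.116, limma adjusted p = 3.68e-05) to below the median intensity of an array (77.9 to 79.3). Mtrex 1447517_at read 349, 309 and 362 on WT and 57.2, 58.4 and 61.7 on E2A-/-, and it fell by 2.49 (SE 0.103) with the same limma adjusted p. The 3 E2A-/- arrays were nearly equal at both of these probe sets.

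Hmga2 and Ndn, both known from immature blood cells, were lower at several probe sets. Hmga2 encodes an architectural chromatin protein. Its probe set 1450781_at read 236, 282 and 230 on WT and 75.4, 72.8 and 62.4 on E2A-/-, and it fell by 1.87 (SE 0.130, limma adjusted p = 0.000941). The other Hmga2 probe sets fell by 1.37 and 0.86, and the fourth differed by -0.97 without passing (limma adjusted p = 0.111). Ndn encodes necdin, an imprinted growth suppressor of quiescent stem cells, and 4 of its 5 tested probe sets passed, with differences of -1.71 to -1.18. At Ndn 1437853_x_at the WT arrays read 203, 238 and 192 and the E2A-/- arrays 98.0, 91.6 and 98.7 (limma adjusted p = 0.0114). The fifth differed by -0.56 (limma adjusted p = 0.145). WT 2 was the highest WT array at each of these Hmga2 and Ndn probe sets that passed, and the E2A-/- arrays stayed near the array median.

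Glo1, Nnt and Ldhb were lower by smaller amounts. Glo1, which detoxifies methylglyoxal, read 1314, 1229 and 1260 on WT and 679, 683 and 548 on E2A-/- at 1451240_a_at, and it fell by 0.99 (SE 0.120, limma adjusted p = 0.0201). Nnt, the mitochondrial transhydrogenase, fell by 0.91 and 0.87 at 2 probe sets (limma adjusted p = 0.0308 and 0.0428). Ldhb, a lactate dehydrogenase subunit, fell by 0.67 at 1455235_x_at, from 616, 656 and 654 to 431, 394 and 397 (limma adjusted p = 0.0358). In all of these the groups did not overlap, E2A-/- 1 included. Further falls were in Cap1, an actin regulator (1.70), BC018473 (1.47), the RNA-binding protein gene Msi2 (1.45), the phosphatase gene Ptp4a2 (1.41) and Cuedc1 (1.22). Tmem181a, Gm20559, the receptor gene Gprc5b, Zscan29 and Kiz fell by 0.63 to 0.96.

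Among the increases, Gm4047 had the widest gap. Its probe set 1457418_at read 95.5, 134.5 and 94.3 on WT and 823, 745 and 873 on E2A-/-, and it rose by 2.85 (SE 0.189, limma adjusted p = 0.00078). The second Gm4047 probe set rose by 1.57, from 68.1 to 72.0 on WT to 157 to 244 on E2A-/- (limma adjusted p = 0.0197). Both probe sets have their WT arrays near the array median, where a constant under all values makes a log2 difference smaller than the change in RNA. C1qtnf12, a secreted factor also called adipolin, read 221, 199 and 230 on WT and 965, 861 and 906 on E2A-/- at 1439422_a_at, and it rose by 2.10 (SE 0.136, limma adjusted p = 0.000772). Wfdc17, a protease inhibitor of myeloid cells, read 380, 381 and 470 on WT and 1357, 1789 and 2534 on E2A-/-, and it rose by 2.19 (SE 0.265, limma adjusted p = 0.0201). The E2A-/- arrays differed among themselves more for Wfdc17 than for C1qtnf12, with E2A-/- 1 lowest and E2A-/- 3 highest.

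Tripartite motif (TRIM) proteins act in ubiquitination and antiviral defence, and their genes Trim34a, Trim12a and Mid1 were higher as well. Trim34a 1424857_a_at read 88.3, 78.6 and 96.7 on WT and 331, 404 and 283 on E2A-/-, and it rose by 1.98 (SE 0.155, limma adjusted p = 0.00223). Trim12a rose by 2.08 (limma adjusted p = 0.00921), and Mid1 by 2.07 (limma adjusted p = 0.0358). Mid1 read 244.5 and 240.8 on E2A-/- 1 and 3 and 466.5 on E2A-/- 2, against 71.3 to 72.4 on WT. Zinc finger genes Zfp945 and Zfp593 rose by 1.44 and 1.32, the phospholipid flippase gene Atp8b4 by 1.28 and the phosphoinositide phosphatase gene Mtm1 by 1.27. Smaller rises were in Auts2 (1.01), Stxbp4 (0.95), the guidance cue gene Sema3d (0.88), the DNA damage response gene Trp53bp1 (0.79), 2610035D17Rik (0.76) and the metallothionein gene Mt2 (0.72).

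Read probe set by probe set, many of these differences were carried by 1 probe set. Of the 35 genes, 5 had 1 single-gene probe set on the array and 30 had several, and 6 genes had more than 1 probe set past the threshold (Mtmr9, Hmga2, Ndn, Ifi44l, Nnt and Gm4047). In 21 genes another tested probe set did not pass, 41 such probe sets in all, of which 29 had the sign of the one that passed. In 12 of the 21 genes no other tested probe set reached 0.5 of the size of the one that passed. Msi2 had probe sets that differed in opposite directions. Its probe set 1443008_at fell by 1.45 (SE 0.120, limma adjusted p = 0.00294), while 1435521_at read 271, 263 and 246 on WT and 707, 732 and 659 on E2A-/- (1.42, SE 0.303, limma adjusted p = 0.180). The other 5 tested Msi2 probe sets lay between -0.85 and 0.36.

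Xaf1 had opposite signs at its 2 probe sets. Against the fall by 2.93 at 1443621_at, 1443698_at read 147, 150 and 149 on WT and 211, 223 and 219 on E2A-/-, a difference of 0.54 (SE 0.0883, limma adjusted p = 0.0780). The groups did not overlap at either. Mtrex differed by 0.08 at its other tested probe set, Cap1 by 0.15, and Ptp4a2 by 0.03 and -0.21. Trim34a differed by -0.35 at its second probe set, Zfp593 by 0.00, and Zfp945 by -0.44 and 0.28. At Trp53bp1 the brightest probe set read 1543, 1485 and 1544 on WT and 1172, 1533 and 954 on E2A-/- (-0.34, limma adjusted p = 0.767), opposite in sign to the dim one that passed. By contrast, all 4 probe sets of Glo1 (-0.99 to -0.52), Ldhb (-0.74 to -0.67) and C1qtnf12 (0.19 to 2.10) had 1 sign within each gene. Which transcript regions the disagreeing probe sets read was not tested.

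**Figure D2:**
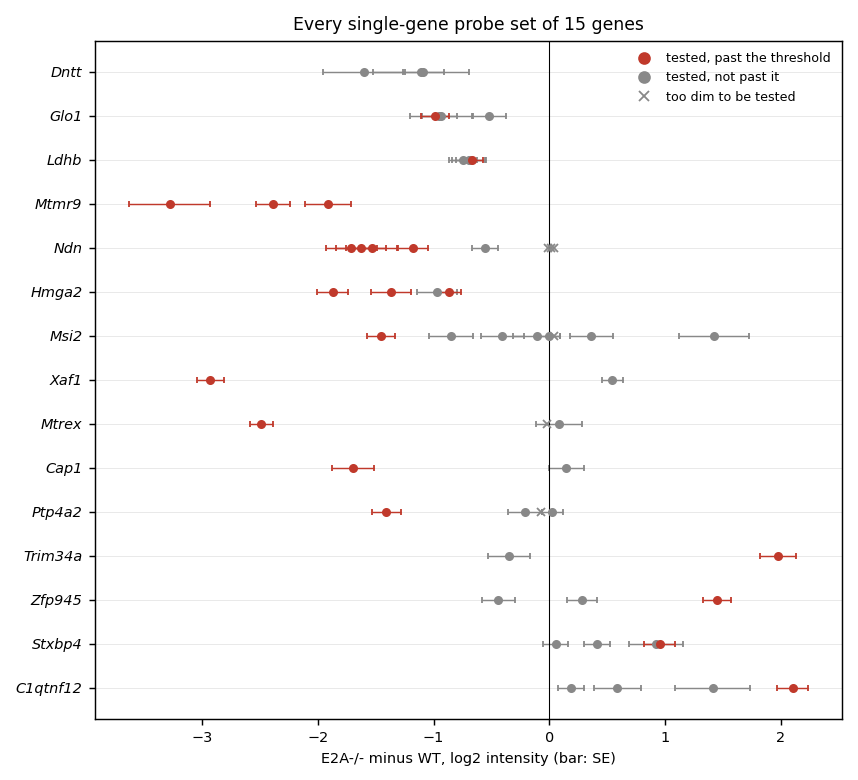
E2A-/- minus WT in log2 intensity at every single-gene probe set of 15 genes, with bars of 1 SE for tested probe sets. Red points passed the threshold, grey points did not, and crosses were too dim to be tested. All Mtmr9, Glo1, Ldhb and Dntt probe sets are below 0, while Xaf1, Msi2, Trim34a and Zfp945 have points on both sides.

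The Lyl1-/- samples differed from the same WT samples at 44 probe sets (0.216% of those tested). Lyl1-/- minus WT was -3.05 for Mtmr9 1455058_at, -2.89 for Xaf1 1443621_at, -1.88 for Hmga2 1450781_at and 1.83 for Trim34a. Most of the 45 probe sets had the same sign in Lyl1-/-, among them those of Mtrex (-2.46), Cap1 (-1.67), Ptp4a2 (-1.45) and Trim12a (2.54). The sign was opposite at Gm4047 1457418_at, Auts2 and Sema3d, and Lyl1-/- was near WT at Mt2 (0.06) and the second Gm4047 probe set (0.01). The same WT samples enter both differences, and their part in the likeness was not tested. The contrast of E2A-/- with Lyl1-/-, which does not use WT, passed at 15 probe sets (0.0736% of those tested), and 4 of the 45 were among them. These 4 were both Gm4047 probe sets, Auts2 and Sema3d. Gm4047 1457418_at read 63.1, 64.4 and 87.8 on the Lyl1-/- arrays, 3.52 below E2A-/- (limma adjusted p = 0.000132). Sema3d read 145, 177 and 157 on E2A-/-, 80.5, 94.0 and 78.3 on WT and 69.4, 69.0 and 71.7 on Lyl1-/-, a difference between the knockouts of 1.18 (limma adjusted p = 0.00816). Auts2 1457139_at read 186, 206 and 205 on E2A-/-, 90.3, 109.5 and 86.6 on WT and 82.8, 88.8 and 98.5 on Lyl1-/- (1.14 between the knockouts, limma adjusted p = 0.0119). For these genes E2A-/- was above both other genotypes without overlap.

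Other genes separated the knockouts while their difference from WT did not pass. Anxa1, an annexin of myeloid cells, read 1387, 1381 and 1488 on E2A-/-, 1099, 941 and 1047 on WT and 718, 718 and 633 on Lyl1-/-. It differed by 1.04 between the knockouts (limma adjusted p = 0.00867) and by 0.50 from WT (limma adjusted p = 0.182). Gfi1b, a transcriptional repressor that acts in the erythroid and megakaryocyte lineages, read 133, 106 and 89.2 on E2A-/-, 164, 183 and 174 on WT and 273, 240 and 222 on Lyl1-/- (-1.18 between the knockouts, limma adjusted p = 0.0488). Sdc1, the syndecan known from plasma cells, read 400, 407 and 412 on E2A-/- against 113.5, 93.1 and 155.8 on Lyl1-/- (1.78, limma adjusted p = 0.0119). In all of them WT lay between the knockouts. Stx3, a membrane fusion gene, Tpm4, Prdx2, Lpcat2 and Card6 were likewise higher in E2A-/- than in Lyl1-/-, and Pde2a and Hoxb5os lower. Lyl1 itself differed by 3.48 between the knockouts. It read 1222, 825 and 900 on E2A-/- against 1429, 1352 and 1443 on WT (-0.53, limma adjusted p = 0.418).

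Whether E2A-/- 1 showed the same differences as E2A-/- 2 and 3 was asked on probe sets chosen without it. A fit with E2A-/- 2 and 3 alone as the knockout passed 54 probe sets, 29 higher and 25 lower, of which 32 were among the 45. E2A-/- 1, which had no part in that choice, lay on the same side of the WT mean at 49 of the 54 and beyond the whole WT range on that side at 45. Of all tested probe sets, 31.8% had E2A-/- 1 above the WT range and 26.3% below it. The WT samples are shared by both readings. In the same way E2A-/- 2 lay beyond the WT range on the right side at 27 of 27 probe sets passed without it, and E2A-/- 3 at 23 of 23. The median size on the left-out array was 76.9% of the difference on the others for E2A-/- 1, 95.4% for E2A-/- 2 and 99.6% for E2A-/- 3.

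The shortfall of E2A-/- 1 was concentrated in 10 of the 54 probe sets, those of the neutrophil and granule lists: Ngp, Camp, Chil3, Lcn2, Ltf, S100a8, S100a9, Wfdc21, Ifitm6 and Clec4d. E2A-/- 1 lay beyond the WT range at 3 of these 10, with a median of 0.752% of the difference on the other arrays. It reached 0.5 of that difference at 1 of the 10, Clec4d, with 0.53 against 0.83 on the others. At the other 44, E2A-/- 1 lay beyond the WT range at 42, with a median of 85.8%, and it reached 0.5 of the difference at 38. Those of the 44 at which it was not beyond the WT range were Ilk and Sf1. Ilk read 566.5 on E2A-/- 1 and 316 and 324 on E2A-/- 2 and 3, with WT at 542 to 601. Sf1 read 1074 on E2A-/- 1 and 2629 and 2558 on the others, with WT at 1228 to 1678. Ilk and Sf1 were picked out after their values were seen. With E2A-/- 1 as the lone knockout array, all 45 differences kept their sign, but E2A-/- 1 had helped to choose the 45. The WT and Lyl1-/- arrays are shared too, so the kept sign adds no support.

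**Figure D3:**
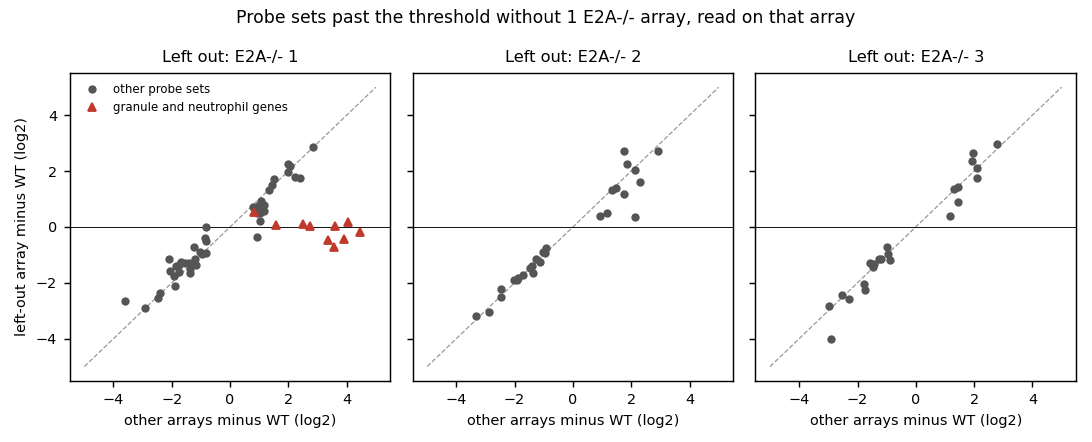
Probe sets past the threshold in a fit without 1 E2A-/- array, with the fitted difference of the other E2A-/- arrays from WT (horizontal, log2) against the left-out array minus the WT mean (vertical, log2); the dashed line marks equal values. Red triangles are genes of the secondary and tertiary granule and mature neutrophil lists. Most of them lie near 0 on E2A-/- 1, while most other probe sets lie nearer the line.

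Array by array, the E2A-/- samples were about equally far from each other. E2A-/- 1 differed by over 2-fold from E2A-/- 2 at 137 probe sets and from E2A-/- 3 at 114, and E2A-/- 2 and 3 differed at 149. From WT 1 and WT 3, counted as 1 sample, E2A-/- 1 differed at 74 and 67 probe sets, fewer than E2A-/- 2 (206 and 187) or E2A-/- 3 (184 and 187). From WT 2 the counts were 221, 205 and 266 for E2A-/- 1, 2 and 3, so E2A-/- 1 was not nearer to that sample than E2A-/- 2 was. It was higher than both other E2A-/- arrays by over 2-fold at 8 probe sets, among them Cct3, Vars and Atp5b, and lower at 15, led by Ngp, S100a8, S100a9, Chil3 and Camp. E2A-/- 2 stood alone at 13 higher probe sets, led by Xist, Pgr and Eif2s3x, and at 17 lower ones, among them Rpl37a, Rps15, Rps10 and Eif2s3y. E2A-/- 3 stood alone at 9 higher probe sets, led by Pf4, Hbb-b2, Actb and Slc4a1, and at 12 lower ones. WT 2 stood alone at 13 higher and 46 lower, and WT 1 and WT 3 at 0.

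Of 14 tested secondary and tertiary granule genes of neutrophils, 6 were over 2-fold above WT on E2A-/- 2, 6 on E2A-/- 3 and 1 on E2A-/- 1. Above the WT range were 13 on E2A-/- 2, 12 on E2A-/- 3 and 5 on E2A-/- 1, where 5 others were below it. Of all tested probe sets, 28.3%, 28.2% and 31.8% were above the WT range on E2A-/- 2, 3 and 1. Over 2-fold above WT were 80, 71 and 40 of all 20387 probe sets. On E2A-/- 1 the list's count above the WT range was therefore near the share of all probe sets. Neutrophils make granules in an order, primary granules with myeloperoxidase and serine proteases first and secondary and tertiary granules with lactoferrin and lipocalin later, so the lists stand for successive steps of maturation. Ngp read 172, 163 and 172 on WT, 149 on E2A-/- 1, and 3991 and 3436 on E2A-/- 2 and 3. Camp, the cathelicidin, read 115, 118 and 104 on WT, 127 on E2A-/- 1, and 1798 and 1982 on E2A-/- 2 and 3. Lcn2, Ltf and Chil3 had the same shape, with E2A-/- 1 at 84.3, 100.7 and 76.9 and the other E2A-/- arrays between 645 and 1107. The alarmin gene S100a8 read 446, 335 and 470 on WT, 291 on E2A-/- 1, and 5524 and 6214 on E2A-/- 2 and 3. On E2A-/- 1, S100a8, S100a9, Ngp and Chil3 were below all WT arrays. Some Lyl1-/- arrays were above WT as well: S100a8 read 894, 736 and 391 and Ngp 468, 281 and 152 on Lyl1-/- 1, 2 and 3, far below E2A-/- 2 and 3.

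The E2A-/- arrays disagreed, and these genes had large mean differences that did not pass. Ngp differed by 2.92 (SE 1.24, limma adjusted p = 0.603), Camp by 2.76 (SE 1.06, limma adjusted p = 0.570) and S100a8 by 2.46 (SE 1.15, limma adjusted p = 0.658). Of 14 tested secondary and tertiary granule genes, 14 had a positive difference, 5 had all E2A-/- arrays above WT and 0 passed, with a median of 0.52. All 11954 tested genes had a median of -0.01, 7.45% had all E2A-/- arrays above WT, and 0.117% passed as higher. By array the list's median was 0.02, 0.62 and 0.91 for E2A-/- 1, 2 and 3. Its summed intensity was 2704 to 3171 on WT and 3477 on E2A-/- 1, and it reached 11748 and 12149 on the other E2A-/- arrays. The mature neutrophil list, with 13 of 14 differences positive and a median of 0.38, summed to 6297 to 7722 on WT, 6928 on E2A-/- 1, and 14727 and 18140 on the others.

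**Figure D4:**
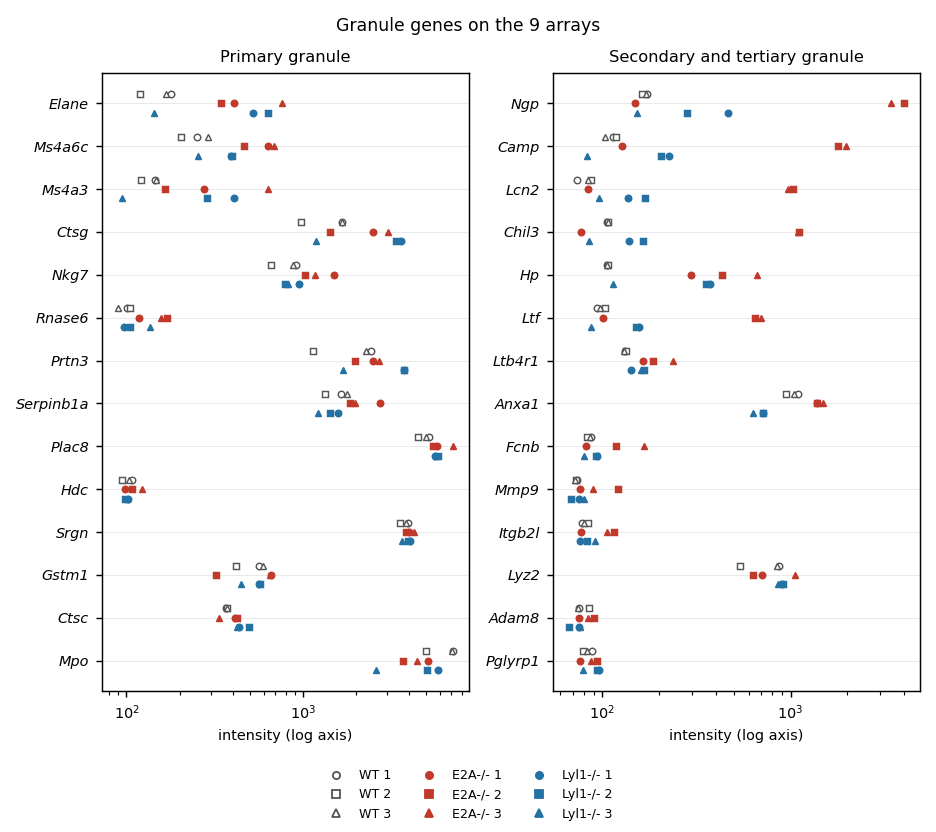
Intensities (log axis) of the tested primary granule genes (left) and secondary and tertiary granule genes (right) on the 9 arrays, by brightest probe set. Ngp, Camp, Lcn2, Chil3 and Ltf are high on E2A-/- 2 and 3 and near or below the WT level on E2A-/- 1, whereas Elane, Ms4a6c and Hp are above WT on all 3 E2A-/- arrays.

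The primary granule list behaved otherwise, since E2A-/- 1 did not stand apart. Above the WT range were 12 of 14 genes on E2A-/- 1, 8 on E2A-/- 2 and 12 on E2A-/- 3. Of all tested probe sets, 31.8%, 28.3% and 28.2% were. Elane, neutrophil elastase, read 180, 119 and 168 on WT and 408, 342 and 768 on E2A-/-, with a difference of 1.72 (SE 0.601, limma adjusted p = 0.502). Ms4a6c, a list member that encodes no granule protease, read 253, 203 and 290 on WT. On E2A-/- it read 638, 466 and 685 (1.33, SE 0.241, limma adjusted p = 0.114). Hp, a secondary granule gene, also followed this pattern, with 106, 107 and 106 on WT and 298, 432 and 665 on E2A-/- (2.05, limma adjusted p = 0.249). The groups did not overlap in any of these, and E2A-/- 3 was the highest. The granule proteases Ctsg and Prtn3 differed less, by 0.80 and 0.53 (limma adjusted p = 0.805 and 0.853). For Ctsg the groups overlapped. Of 14 primary granule genes 13 had a positive difference, 7 had all E2A-/- arrays above WT (7.45% of all tested genes) and 0 passed (0.117% passed as higher), with medians of 0.51, 0.23 and 0.58 on E2A-/- 1, 2 and 3. Mpo, myeloperoxidase, was the exception with 7119, 5000 and 7060 on WT and 5131, 3706 and 4487 on E2A-/- (-0.44, limma adjusted p = 0.851). WT 2 was the lowest WT array for most of them, and the list's median of 0.52 was 0.29 without WT 2. In Lyl1-/- the list's median difference from the same WT samples was 0.20.

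Clec4d came nearest to the threshold among the myeloid genes, with 265, 262 and 261 on WT and 380, 451 and 481 on E2A-/- (0.73, SE 0.122, limma adjusted p = 0.0855). Genes of monocytes and macrophages had 7 positive and 3 negative differences and a median of 0.06, and their sum was 1889 to 2246 on WT and 2073 to 2571 on E2A-/-. The mature erythroid list had a median of 0.39, which came from E2A-/- 3 (0.90, against -0.05 and 0.00 on E2A-/- 1 and 2). Slc4a1, the erythrocyte anion exchanger, read 116 to 182 on WT and 140, 300 and 736 on E2A-/-. MHC class II genes, which antigen-presenting cells use, had 8 of 8 differences positive, from 0.17 to 0.55. Of these genes 0 passed (0.117% of all tested genes passed as higher). Their part in the other results was not tested.

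Lymphoid priming genes, which uncommitted progenitors express at low level before lineage choice, mostly had negative differences, with the median of E2A-/- 1 on the same side as those of the other E2A-/- arrays. Of 18 tested, 14 had a negative difference, 10 had all E2A-/- arrays below WT (10.4% of all tested genes did) and 0 passed (0.109% of all tested genes passed as lower). The median was -0.36, and by array it was -0.29, -0.34 and -0.44 for E2A-/- 1, 2 and 3. In Lyl1-/- the list's median difference from the same WT samples was -0.31, and E2A-/- minus Lyl1-/- had a median of 0.02. The list as a whole therefore did not separate the knockouts. At an unadjusted p under 0.05, 7 members were lower, as 5.43% of all tested genes were. Dntt, the terminal transferase that adds bases at antigen receptor joints, had the lowest value, and its probe set 1449757_x_at read 3795, 4171 and 3916 on WT and 1826, 1857 and 1973 on E2A-/-. The E2A-/- arrays were close together and clear of WT, and the difference was -1.09 (SE 0.176, limma adjusted p = 0.0779). The other Dntt probe sets differed by -1.60 (SE 0.355, limma adjusted p = 0.198) and -1.11 (SE 0.414, limma adjusted p = 0.554), also without overlap. On Lyl1-/- the first Dntt probe set read 2851, 2939 and 4362, and the difference between the knockouts was -0.82 (limma adjusted p = 0.259).

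Receptors of lymphoid precursors were among the lower members. Il7r, the interleukin 7 receptor, read 91.7, 128.5 and 101.0 on WT and 73.6, 75.8 and 80.3 on E2A-/- (-0.54, limma adjusted p = 0.475). Notch1 read 798, 537 and 757 on WT and 512, 381 and 430 on E2A-/- (-0.56, limma adjusted p = 0.577). Ccr9, a homing receptor of thymus seeding cells, read 82.7, 171.7 and 85.9 on WT and 63.5, 64.2 and 65.1 on E2A-/- (-0.90, limma adjusted p = 0.653). In each the groups did not overlap, and Il7r and Ccr9 were near or below the array median on E2A-/-. For Ccr9, WT 1 and WT 3 were near the median too and only WT 2 was well above it. The other Ccr9 probe sets were too dim to be tested. Ets1, a transcription factor, differed by -0.66, and the signalling adaptor gene Blnk by -0.62. Blnk read 85.1, 137.1 and 88.7 on WT and 79.2, 62.0 and 73.2 on E2A-/-, so WT 2 was again the highest. Against this direction, Cd52 read 687, 905 and 752 on WT and 1468, 1171 and 1520 on E2A-/- (0.77, limma adjusted p = 0.253), and Irf8, Satb1 and Mef2c differed by 0.64, 0.29 and 0.14. Flt3, Ikzf1 and Bcl11a differed by -0.13, -0.06 and -0.21 with overlapping groups.

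**Figure D5:**
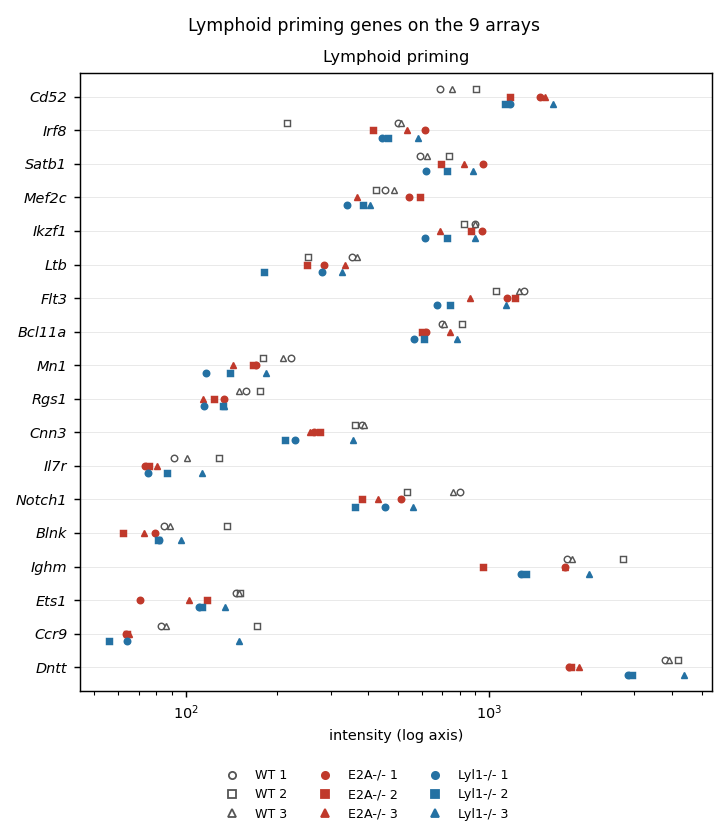
Intensities (log axis) of the 18 tested lymphoid priming genes on the 9 arrays, ordered by the E2A-/- minus WT difference. For Dntt the 3 E2A-/- arrays sit at 1826 to 1973, below the WT arrays at 3795 to 4171.

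Genes of the B lineage had 8 of 10 negative differences (53.7% of all tested genes were negative) and a median of -0.12. Of the list 0 passed, and of all tested genes 0.109% passed as lower and 0.117% as higher. At such shares, 0 in a short list says nothing about its genes. Blnk is also a member of this list. Vpreb1, a surrogate light chain gene, read 91.8, 120.7 and 94.1 on WT and 81.6, 78.03 and 82.8 on E2A-/- (-0.39, limma adjusted p = 0.418), and Cd24a was the opposite case at 0.36 (limma adjusted p = 0.517). Of 21 genes of E proteins and their partners, 15 differed negatively with a median of -0.18. Here too 0 passed, against the same shares of all tested genes. The E proteins Tcf4 and Tcf12 differed by -0.10 and 0.09, and Tal1 by 0.13, each with overlapping groups. Erg read 618, 584 and 554 on WT and 474, 376 and 353 on E2A-/- (-0.56, limma adjusted p = 0.241), and Runx1 differed by -0.46, Myb by -0.33 and the corepressor gene Cbfa2t3 by -0.63. At these brightest probe sets the E2A-/- arrays were all below WT. The probe sets of these genes disagreed in part: the dim second one of Erg differed by 0.42, with all E2A-/- arrays above WT, and one of Tcf4 by 0.41 likewise.

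The E-box motif was looked up in the sequence before the start of genes that the comparison turns on: Dntt, the lowest lymphoid priming gene; Sema3d, higher than in both other genotypes; and S100a8, which among the E2A-/- arrays was above WT on E2A-/- 2 and 3 and not on E2A-/- 1. The windows are the 250 bases before the annotated start, in RefSeq's promoter table for GRCm38.p6, read 5′ to 3′ on the coding strand. Capitals mark CANNTG, the general E-box, which reads the same class of letters on either strand. The windows are chr19:41029025-41029274 (Dntt, plus strand), chr5:12382916-12383165 (Sema3d, plus strand) and chr3:90668821-90669070 (S100a8, plus strand).
Dntt: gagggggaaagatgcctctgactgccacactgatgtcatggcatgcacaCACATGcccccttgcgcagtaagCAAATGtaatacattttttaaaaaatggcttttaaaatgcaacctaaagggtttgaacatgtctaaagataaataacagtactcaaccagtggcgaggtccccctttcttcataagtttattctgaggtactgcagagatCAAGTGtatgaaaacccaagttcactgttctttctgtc
Sema3d: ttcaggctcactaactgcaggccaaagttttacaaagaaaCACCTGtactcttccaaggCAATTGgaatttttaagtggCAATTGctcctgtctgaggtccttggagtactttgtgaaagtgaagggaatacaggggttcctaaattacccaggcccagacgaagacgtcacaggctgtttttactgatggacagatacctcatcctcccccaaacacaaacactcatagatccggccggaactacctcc
S100a8: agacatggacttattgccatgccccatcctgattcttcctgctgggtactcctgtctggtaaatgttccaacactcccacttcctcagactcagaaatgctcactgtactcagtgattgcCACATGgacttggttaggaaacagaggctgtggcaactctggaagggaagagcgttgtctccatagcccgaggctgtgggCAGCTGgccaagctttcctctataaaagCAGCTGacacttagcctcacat
The Dntt window held CACATG beginning 201 bases before the start, CAAATG at 178 bases and CAAGTG at 38 bases. The Sema3d window held CACCTG at 210 bases and CAATTG at 191 and 171 bases. The S100a8 window held CACATG at 130 bases and CAGCTG at 50 and 22 bases. CANNTG was found in 66.2% of 32851 promoters, in 69.3% of the 27025 genes they belong to, and in 17 of the 29 genes past the threshold that had a promoter in the table (58.6%). CAGGTG, read on both strands and so as CACCTG too, was in 17.2% of promoters, 19.4% of genes and 5 of these 29 genes (17.2%). CAGCTG was in 13% of promoters, 14.7% of genes and 6 of the 29 (20.7%). A match is a description of letters, not of binding.

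Genes of stem cells had negative differences in 18 of 18 tested, with a median of -0.34. They mark quiescent, long-term repopulating cells, which largely lack CD135. Ndn was the member past the threshold (0.109% of all tested genes passed as lower). Mecom read 305, 334 and 292 on WT and 199, 209 and 156 on E2A-/- (-0.76, SE 0.149, limma adjusted p = 0.136), and Robo4 read 112, 109 and 114 on WT and 74.6, 72.9 and 84.5 on E2A-/- (-0.52, limma adjusted p = 0.130). Pdzk1ip1 differed by -1.13 (limma adjusted p = 0.215). In 9 of the 18 the E2A-/- arrays were all below WT (10.4% of all tested genes), and the median was -0.22, -0.35 and -0.58 on E2A-/- 1, 2 and 3. The list's median difference in Lyl1-/- was -0.37, against the same WT samples.

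Interferon response genes, switched on through STAT factors in most cell types, had 21 of 28 negative differences and a median of -0.19, which by array was -0.19, -0.24 and -0.20. Xaf1 entered the list by 1443698_at, its brighter probe set on average over the arrays, at 0.54. That was the list's largest positive difference, so the fall of Xaf1 at 1443621_at is not part of these counts. Ifi44l passed at 2 probe sets. At 1425917_at it read 188, 334 and 170 on WT and 56.9, 65.5 and 65.0 on E2A-/-, and it fell by 1.97 (SE 0.223, limma adjusted p = 0.0143), and at 1421596_s_at it fell by 0.91 (limma adjusted p = 0.0412). The antiviral synthetase family gene Oas1a read 941, 786 and 907 on WT and 562, 515 and 546 on E2A-/- (-0.66, limma adjusted p = 0.105), and Oasl2 and Oas2 differed by -0.65 and -0.61. In these 3 the groups did not overlap, and in 13 of the 28 genes the E2A-/- arrays were all below WT, as in 10.4% of all tested genes. Irf7, Irf9 and Stat2, regulators of the response, differed by -0.14, 0.04 and 0.05 with overlapping groups.

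Genes beside Tcf3 and markers of other cells gave small differences. Of the 40 annotated neighbours of Tcf3, 20 on each side, 25 were tested. Their differences ran from -0.35 to 0.30 with a median of 0.01. Of these neighbours 0 passed (0.109% of all tested genes passed as lower and 0.117% as higher). Of 12 listed lineage antigens, 5 were tested. The T cell antigens Cd3e, Cd4 and Cd8a among them were at 79.6 to 120.1 on these 6 arrays and say nothing of myeloid antigens. The tested members summed to 1778 to 2016 on WT and 1543 to 1878 on E2A-/-, so brighter ones were among them. The T and innate lymphoid list had a median of -0.06 and summed to 809 to 853 on WT and 837 to 846 on E2A-/-. The dendritic cell list had a median of 0.04, and the mast, basophil and eosinophil list -0.09. S phase genes had a median of 0.02, with 15 of 25 positive, and G2 and M phase genes one of -0.12, with 14 of 22 negative.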

How the data were processed

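Biotin-labelled RNA of sorted progenitors was hybridised to 9 Affymetrix 3-prime arrays, per the labels' protocols. RMA and oligo are the tools that the submitters' processing notes list for the authors' normalization, with no version, and the deposited values are linear intensities. Their lowest value on an array was 42.1 to 45.1, which compresses differences of dim genes. Precision is limited by how many samples there were. Groups and replicate numbers came from the sample titles. Of 45101 probe sets, 34945 had 1 gene in GEO's platform annotation, 932 several and 9160 none, and 64 were controls. Of the single-gene probe sets, 34741 were matched to the RefSeq table of GRCm38.p6 by Entrez identifier, which changed 0 symbols. A probe set was tested if it exceeded the median of its array on 3 or more arrays. Log2 was taken with no pseudocount, WT 1 and WT 3 were averaged, and 8 samples of 3 genotypes were fitted with limma 3.58.1 (lmFit, then eBayes) under R 4.3.3 (5 residual degrees of freedom). Adjusted p-values are Benjamini-Hochberg values over the 20387 tested probe sets. In lists, a gene was represented by its brightest tested probe set.

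The arrays compared, the gene lists and the tests were chosen with earlier results of these data known. Named were Tcf3 and Lyl1; the genes of the 10 most increased and 10 most decreased probe sets past the threshold whose arrays do not overlap, and up to 6 with several probe sets past it; in each list up to 4 genes of smallest p; all members of the lymphoid priming, E protein, granule and sort gate lists; and up to 8 genes that set 1 E2A-/- array apart. Other names were chosen after their values were seen.

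The fit was tested on simulated data. Alternatives were other normalizations, filters, summaries, priors and covariates, and leaving out arrays. Replicate numbers were not used to pair the samples.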

Additional observations from a re-analysis of the deposited data

Results flagged for a closer look

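Probe sets outside the main comparison, which used only those with 1 annotated gene, also differed between E2A-/- and WT. They were tested in a separate limma fit of 24195 named and unnamed probe sets, with p-values adjusted over all of these. Of 3228 tested probe sets with no gene in the annotation, 17 passed the threshold (0.527%), 2 higher and 15 lower, and of 580 with several genes, 3 passed, all lower (0.517%). In the same fit 49 of 20387 single-gene probe sets passed (0.24%). The difference between these shares was not tested. The widest difference among the probe sets with no single gene was at 1455869_at, which read 74.1, 82.1 and 78.2 on WT and 907, 613 and 1056 on E2A-/- (3.4, SE 0.264, limma adjusted p = 0.00214). Probe set 1440862_at read 1223, 1723 and 1253 on WT and 303, 226 and 195 on E2A-/- (-2.62, SE 0.224, limma adjusted p = 0.00317). Both have E2A-/- 1 on the side of the other E2A-/- arrays. A probe set shared by Gm38524 and Xkr6 read 137 to 178 on WT and 58.8 to 66.6 on E2A-/- (-1.38, limma adjusted p = 0.00317).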

How the results depend on the processing

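The main fit gave 17 higher and 28 lower probe sets, and 15 between the knockouts. Counts moved by over 1.5 times in these fits, for which the cause was not tested unless the setting has fewer samples or probe sets. With 9 separate samples there were 58 higher and 96 lower. The labels do not say that a replicate number marks a shared litter or day. Correlations of same-numbered arrays were -0.136 to 0.252, and with none of differently numbered arrays beside them they cannot decide whether the samples are paired. The fit of 9 arrays with the replicate number as a block gave 35 and 59. The E2A-/- and WT samples alone gave 6 and 8. With 1 probe set a gene 13 were lower, and averaging each gene's probe sets gave 10 and 14. With Xist signal as a covariate 14 were lower and 9 differed between the knockouts. E2A-/- 1 as the lone knockout array gave 7 and 4, and 4 between the knockouts. Fits added after seeing the data were without WT 2 and E2A-/- 2 (7 and 8, and 6 between the knockouts) and without WT 1 and 3 (4 and 17). Leaving out 1 array gave 6 to 29 higher, 9 to 29 lower and 4 to 26 between the knockouts. A fit that leaves 1 sample of a genotype takes its spread from the others.

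Over lists and settings, 67 medians moved by more than the SD of the 3 E2A-/- arrays and 607 did not. E proteins and partners (-0.18) ranged from -0.31 to -0.07 and G2 and M phase (-0.12) from -0.21 to -0.05, with the sign kept in 25 of 25 settings, and MHC class II (0.35) from 0.18 to 0.50. The lymphoid, granule, neutrophil and interferon lists moved as follows, and the cause was not tested. Lymphoid priming (-0.36) was -0.44 with the lowest intensity subtracted and 16 added, -0.13 with no filter, -0.21 with the stricter filter, -0.27 with the mean of probe sets and -0.27 without WT 2 and E2A-/- 2. B lineage was -0.19 with the subtraction. Interferon response (-0.19) was -0.24 with the subtraction, -0.21 with the stricter filter, -0.24 without WT 2 and E2A-/- 2, -0.16 without WT 1 and 3, and -0.23 to -0.16 with 1 array left out. Secondary and tertiary granule (0.52) was 2.05 with the stricter filter and 0.024 with E2A-/- 1 alone, mature neutrophil (0.38) was 0.91 and 0.066, and primary granule was 0.29 to 0.57 with 1 array left out. Xaf1 was -1.19 (limma adjusted p = 0.00312) as the mean of its probe sets, the reverse of its brighter probe set. Over all settings, 4118 values of single probe sets kept direction and side of the threshold, 368 lost it and 32 gained it. Only probe sets past the threshold in the main fit can lose it, so the 368 all belong to the 45. Most of the 4118 belong to probe sets that had not passed, so they do not measure how stable the 45 are. The fit of the E2A-/- and WT samples alone kept 11 of the 45, and the one without WT 2 kept 13. The 6 arrays and the constant under dim values limit what small differences could be seen.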
